A study of Homo sapiens with 4 samples.

Results

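Caveolae are flask-shaped pits of the plasma membrane, and the genes that build them formed the subject here: 8 genes, chosen by name among the 23228 genes of each deposited count table. They encode the caveolins CAV1 and CAV2, the cavins PTRF, SDPR and PRKCDBP (now named CAVIN1, CAVIN2 and CAVIN3) and the neck proteins EHD2, PACSIN2 and PACSIN3. The choice was made with the knockdown result in view, since CAV1 was known to stand about 2-fold higher after KDM1A shRNA. Every difference between the groups for these 8 genes is therefore given as a description, with no p-value, and the 1 count of their edgeR calls below supports nothing. All 8 passed the filter on low counts, with at least 529 reads in each library.

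The samples came from the established human triple negative breast cancer line MDA-MB-231, sorted by ALDEFLUOR for aldehyde dehydrogenase activity as a cancer stem cell fraction and kept in MammoCult medium. KDM1A shRNA cells (2 libraries) stably expressed a lentiviral short hairpin RNA against KDM1A, the histone demethylase also called LSD1. Control shRNA cells (2 libraries) carried a control hairpin from the same kind of vector. The labels name no second hairpin against KDM1A, no rescue and no separate cultures, so the spread between libraries may be technical. Effects of the hairpin, of the stable culture or of a difference in cells between the groups cannot be told apart from loss of KDM1A.

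In a caveola, oligomers of caveolin insert into the inner leaflet of the membrane and bind cholesterol, and cavin trimers assemble on them as an outer coat. EHD2, an ATPase, forms rings at the neck that tether the pit to the membrane, and the PACSIN proteins, which carry a membrane-bending F-BAR domain, act at the same neck. Caveolae flatten under membrane tension and so serve as a membrane reserve. CAV1 is used as a marker of basal-like and mesenchymal breast cancer cells.

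Gene reads per library lay between 23902900 and 26923678. KDM1A itself had 561 and 649 reads in KDM1A shRNA libraries and 4660 and 4059 in control shRNA libraries (log2 fold change -2.81, SE 0.05, edgeR adjusted p = 2.2e-14), so both KDM1A shRNA libraries matched their labels. All 14 genes taken as typical of MDA-MB-231 were at 60.9 CPM or more in each library, with a median log2 fold change of -0.06. CPM are read counts scaled to library size with TMM factors. At an edgeR adjusted p under 0.05, 5 of the 14 were called higher, 6 lower and 3 were not called. Of all tested genes, 27.3% were called higher, 28.8% lower and 56.1% in either direction. Hormone receptor RNA was near the floor: ESR1 had 0 and 1 reads in KDM1A shRNA and 7 and 9 in control shRNA, and PGR at most 1 read, while ERBB2 had 2151 and 2384 reads in KDM1A shRNA and 1834 and 1672 in control shRNA. CDKN2A, which the line is known to lack, and its neighbours on chromosome 9, CDKN2B, MTAP and KLHL9, went against this identity in the control libraries. CDKN2A had 13 and 19 reads in KDM1A shRNA and 323 and 329 in control shRNA. The 4 genes together summed to 1.503 and 1.67 CPM in KDM1A shRNA and to 34.0 and 37.5 CPM in control shRNA. This difference runs along the same contrast as every group difference given here. A difference between the groups in the cells themselves therefore cannot be told apart from loss of KDM1A. Its part in the caveolar values was not tested. In bulk RNA, fewer cells of a type and less RNA per cell cannot be told apart.

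The starts of CAV1, CAV2 and SDPR are shown because CAV1 and CAV2 lie side by side and were higher together, and because SDPR was higher with a start of another base composition. RefSeq promoter windows (GRCh38.p14, 250 bases before to 50 after a gene's start, the most upstream entry of each gene) were found for 5 of the 8 genes. The windows printed are chr7:116524759-116525058 for CAV1 and chr7:116499488-116499787 for CAV2, both on the plus strand, and chr2:191847039-191847338 for SDPR on the minus strand. Capitals mark the GC box GGGCGG and the TEAD core GGAATG on either strand.
CAV1: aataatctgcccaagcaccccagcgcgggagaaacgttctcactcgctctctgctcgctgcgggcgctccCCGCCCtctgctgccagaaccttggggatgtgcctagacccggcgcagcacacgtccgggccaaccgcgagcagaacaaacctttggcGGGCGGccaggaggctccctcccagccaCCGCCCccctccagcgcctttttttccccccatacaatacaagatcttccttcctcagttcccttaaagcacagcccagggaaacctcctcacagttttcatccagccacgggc
CAV2: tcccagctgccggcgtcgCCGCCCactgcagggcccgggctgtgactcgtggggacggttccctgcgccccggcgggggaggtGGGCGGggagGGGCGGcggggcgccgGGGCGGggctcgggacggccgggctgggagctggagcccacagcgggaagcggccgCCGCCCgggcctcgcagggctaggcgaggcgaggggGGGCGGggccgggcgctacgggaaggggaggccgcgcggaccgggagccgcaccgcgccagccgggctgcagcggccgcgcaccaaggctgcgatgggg
SDPR: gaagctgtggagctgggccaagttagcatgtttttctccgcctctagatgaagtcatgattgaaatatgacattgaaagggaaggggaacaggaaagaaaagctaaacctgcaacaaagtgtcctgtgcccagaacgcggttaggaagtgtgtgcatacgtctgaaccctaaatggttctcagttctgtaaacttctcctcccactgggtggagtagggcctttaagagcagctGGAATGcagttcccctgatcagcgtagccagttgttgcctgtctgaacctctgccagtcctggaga
The CAV2 window held 43 CpG dinucleotides and 6 GC boxes, more CpGs than 95.0% of the 35116 RefSeq promoters of that length. The CAV1 window held 19 CpGs and 3 GC boxes, near the median of 14 CpGs over all promoters. The SDPR window held 5 CpGs, no GC box and 1 TEAD core. EHD2 had 30 CpGs with 1 GC box, and PACSIN2 had 27 with 2. A GC box stood in 45.0% of all promoters and a TEAD core in 14.03%. No window of the 5 held the AP-1 motif TGANTCA, found in 7.71% of all promoters, or the TATA box TATAAA, found in 11.5%; both strands were searched, with no mismatch allowed. The E-box CANNTG, found in 68.7% of all promoters, occurred at 1 place in the CAV2 and PACSIN2 windows and at 2 in that of SDPR, where one of them shares its last base with the TEAD core. The GC boxes are thus found in 4 of the 5 windows, and these matches describe letters only.

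CAV1 had the highest fold change of the 8 genes. It encodes the caveolin that caveolae of non-muscle cells require (chromosome 7, 116165090 to 116201233, plus strand, GRCh37) and had 22842 and 24718 reads in KDM1A shRNA libraries and 12331 and 10859 in control shRNA libraries. These correspond to 953 and 958 CPM in KDM1A shRNA and 460 and 447 CPM in control shRNA, so the groups lay far apart and the libraries within each close together. The mean was 955 ± 3.002 CPM in KDM1A shRNA and 454 ± 9.06 CPM in control shRNA (SD, n = 2 each), 2.11-fold higher (log2 fold change 1.07, SE 0.03). CAV1 was chosen for this difference, so nothing is read from its size. Of 14012 genes tested, 3.07% were called higher by 2-fold or more, and no other member of the 8 reached 2-fold.

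CAV2, which forms hetero-oligomers with CAV1 and needs it to leave the Golgi (chromosome 7, 116139792 to 116148595, plus strand, GRCh37), had 230 and 226 CPM in KDM1A shRNA and 139 and 149 CPM in control shRNA. Both KDM1A shRNA libraries were above both control libraries, by a smaller margin than for CAV1. Of all tested genes, 38.1% had groups apart in this direction. Its log2 fold change was 0.66 (SE 0.04), or 1.58-fold. RPKM, the CPM per kilobase of the canonical transcript, put CAV1 over CAV2 by 4.98 and 5.08 times in KDM1A shRNA and by 3.97 and 3.60 times in control shRNA. CAV1 accounted for 83.3% and 83.6% of caveolin RPKM in KDM1A shRNA and for 79.9% and 78.3% in control shRNA. CAV1, the gene chosen for its difference, thus took a larger share in both KDM1A shRNA libraries, which is a description.

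**Figure D1:**
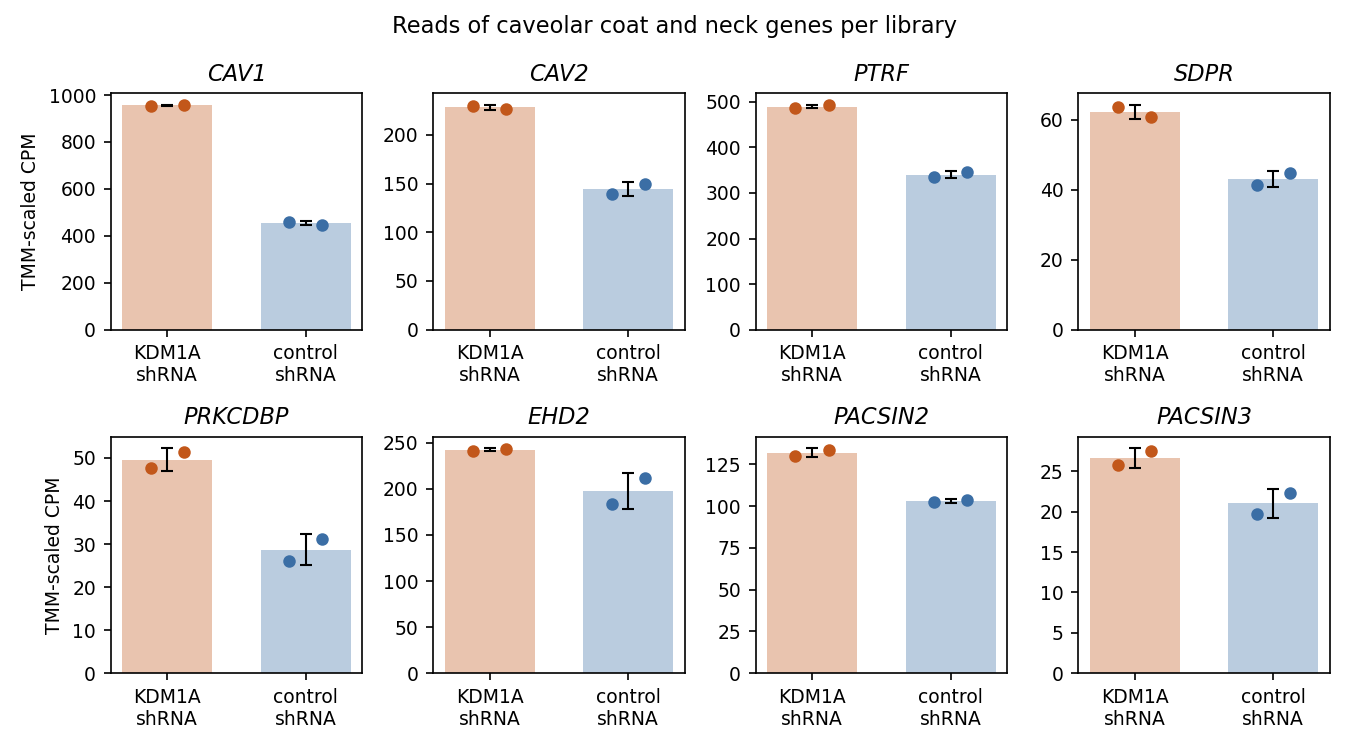
TMM-scaled CPM of the 8 caveolar genes, 1 point per library, with bars for the mean and error bars for the SD of 2 libraries; KDM1A shRNA is orange and control shRNA blue, and each axis starts at 0. Both KDM1A shRNA points lie above both control points in all 8 panels, with the widest gap for CAV1 (955 and 454 CPM on average) and the closest approach, as a ratio, for EHD2 (242 against 212 CPM). The genes were picked with this contrast known. Of all tested genes, 38.1% had groups apart in this direction and 77.7% in either direction.

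Among the cavins, PTRF, whose product is required for caveolae to form (chromosome 17, 40554467 to 40575274, minus strand), had 487 and 492 CPM in KDM1A shRNA and 334 and 345 CPM in control shRNA. The difference was 1.44-fold (log2 fold change 0.53, SE 0.04), with no overlap between the groups, as in 38.1% of all tested genes in this direction. PRKCDBP, a cavin first found as a binder of protein kinase C delta (chromosome 11, 6340176 to 6341731, minus strand), had 47.7 and 51.5 CPM in KDM1A shRNA and 26.1 and 31.2 CPM in control shRNA. Its log2 fold change of 0.80 (SE 0.08) was the second highest of the 8 genes, and its control libraries differed from each other by 19.4%, the widest gap within a group for any member. SDPR, a cavin that helps shape and elongate caveolae (chromosome 2, 192699036 to 192711814, minus strand), had 63.8 and 60.9 CPM in KDM1A shRNA and 41.5 and 44.8 CPM in control shRNA. At 1.45-fold (log2 fold change 0.53, SE 0.06) it stood beside PTRF.

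PTRF was the main cavin per length in all 4 libraries. PTRF made up 66.9% and 66.3% of cavin RPKM in KDM1A shRNA and 70.6% and 68.3% in control shRNA. SDPR made up 10.3% and 9.59% in KDM1A shRNA and 10.2% and 10.3% in control shRNA. PRKCDBP took 22.8% and 24.1% in KDM1A shRNA and 19.2% and 21.4% in control shRNA. The ratio of caveolin to cavin RPKM was 2.29 and 2.24 in KDM1A shRNA and 1.77 and 1.64 in control shRNA. CAV1 makes up most of the caveolin sum, so the ratio largely restates its difference, and the cavin PRKCDBP (log2 fold change 0.80) stood above the caveolin CAV2 (0.66).

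The neck genes had the 3 lowest fold changes of the 8. EHD2 (chromosome 19, 48216679 to 48246391, plus strand) had 242 and 244 CPM in KDM1A shRNA and 184 and 212 CPM in control shRNA, and the control libraries lay farther apart than the KDM1A shRNA libraries. Its log2 fold change was 0.29 (SE 0.05), or 1.23-fold, and came to 0.20 without control shRNA library 1. PACSIN2, the widely expressed PACSIN (chromosome 22, 43265779 to 43411155, minus strand), had 130 and 134 CPM in KDM1A shRNA and 102 and 104 CPM in control shRNA, a log2 fold change of 0.36 (SE 0.04). PACSIN3, the paralog best known from muscle (chromosome 11, 47199073 to 47207985, minus strand), had 25.8 and 27.5 CPM in KDM1A shRNA and 19.7 and 22.3 CPM in control shRNA, a log2 fold change of 0.35 (SE 0.08). Neither PACSIN gene overlapped between the groups, which also held for 77.7% of all tested genes in either direction and 38.1% in the higher direction.

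The genes were picked with this contrast known, CAV1 for its difference, so the following counts are a description from which nothing is read. An edgeR adjusted p under 0.05 with a higher level in KDM1A shRNA was found for 8 of the 8 genes, where 27.3% of the 14012 genes tested were called higher, 28.8% lower and 56.1% in either direction. The groups did not overlap in 8 of 8, where this held for 77.7% of tested genes in either direction and for 38.1% in the higher direction. The median log2 fold change was 0.53 over the 8 genes, with a range of 0.29 to 1.07, and -0.0047 over all tested genes. Summed, the 8 genes took 2180 and 2194 CPM in KDM1A shRNA and 1308 and 1356 CPM in control shRNA. Without CAV1 the sums were 1226 and 1236 CPM in KDM1A shRNA and 847 and 909 CPM in control shRNA. CAV1 alone supplied 43.7% and 43.6% of the members' reads in KDM1A shRNA and 35.2% and 33.0% in control shRNA.

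Per transcript length, CAV1 was the most abundant of the 8 in both groups, at 389 ± 1.22 RPKM in KDM1A shRNA and 185 ± 3.69 RPKM in control shRNA (SD, n = 2 each). PTRF came next, at 137 ± 1.10 RPKM in KDM1A shRNA and 95.2 ± 2.23 RPKM in control shRNA. The levels below these 2 genes took another order in each group. In KDM1A shRNA the order was CAV2 (77.3 RPKM), EHD2 (69.2), PRKCDBP (48.3), PACSIN2 (40.6), SDPR (20.4) and PACSIN3 (14.2), with no overlap between neighbours. In control shRNA EHD2 (56.5 ± 5.63 RPKM) stood before CAV2 (48.9 ± 2.37), and PACSIN2 (31.7 ± 0.32) before PRKCDBP (27.9 ± 3.48). The library values of these 2 pairs did not overlap in control shRNA, but PACSIN2 at 31.5 and 31.9 RPKM lay close to the higher PRKCDBP library at 30.3 RPKM. CAV1 lay at the 99.1th percentile of mean CPM over the genes tested, PTRF at the 97.7th and PACSIN3, the lowest, at the 46.0th.

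**Figure D2:**
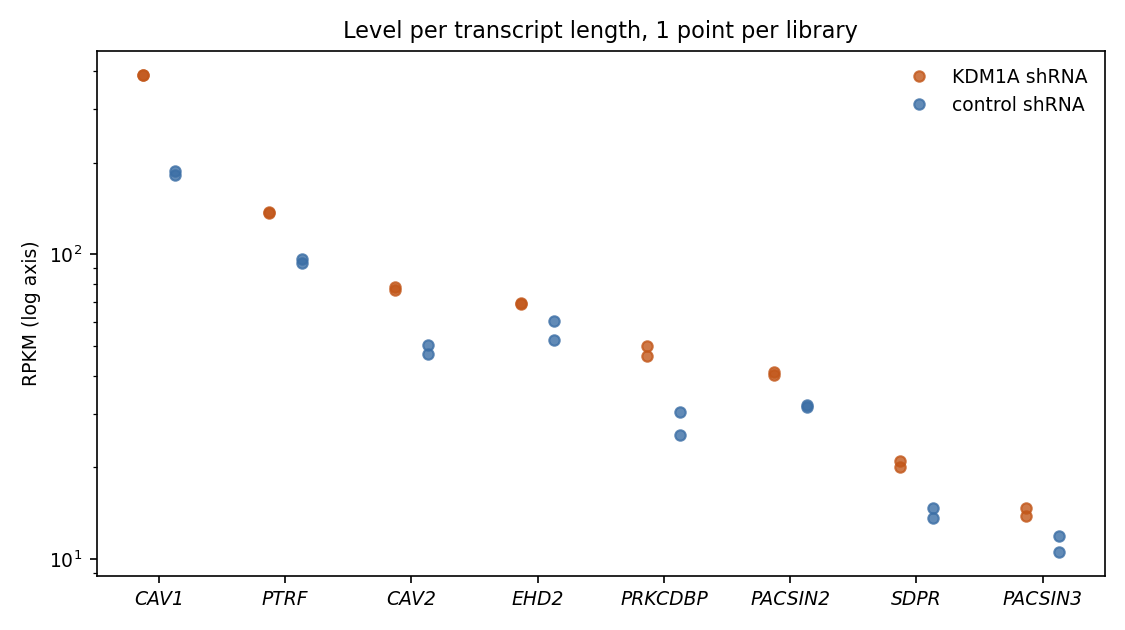
RPKM of the 8 genes on a log axis, 1 point per library, ordered by the KDM1A shRNA mean; KDM1A shRNA is orange and control shRNA blue. CAV1 (389 and 185 RPKM on average) and PTRF (137 and 95.2 RPKM) lie above the other 6 genes in both groups, and PACSIN3 (14.2 and 11.2 RPKM) lies lowest.

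Paralogs outside the 8 genes did not share one direction. Of 6, 5 were tested, and 1 rose, 3 fell and 1 was not called, with a median log2 fold change of -0.26. Among all genes tested, 27.3% were called higher and 28.8% lower. EHD1, an endocytic recycling ATPase, rose, with 323 and 335 CPM in KDM1A shRNA and 192 and 209 CPM in control shRNA (log2 fold change 0.72, SE 0.04, edgeR adjusted p = 5.8e-09). Per length EHD1 stood at 73.9 RPKM in KDM1A shRNA and 45.0 RPKM in control shRNA, above EHD2 (69.2 RPKM) in KDM1A shRNA and below it (56.5 RPKM) in control shRNA. EHD4, which also acts in endosomal traffic, fell slightly (-0.26, SE 0.05, edgeR adjusted p = 0.00085). EHD3 fell at a low level, with 16 and 17 reads in KDM1A shRNA and 66 and 57 in control shRNA (-1.85, SE 0.26, edgeR adjusted p = 2.8e-05). EHD2 supplied 45.6% and 44.9% of the RPKM of the 4 EHD genes in KDM1A shRNA and 48.8% and 50.3% in control shRNA.

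The muscle members of the families had low counts. CAV3, the muscle caveolin, had 31 and 37 reads in KDM1A shRNA and 32 and 40 in control shRNA (-0.05, SE 0.27, edgeR adjusted p = 0.89). MURC, the muscle cavin now named CAVIN4, had 27 and 35 reads in KDM1A shRNA and 61 and 47 in control shRNA (-0.76, SE 0.24, edgeR adjusted p = 0.015). The MURC call was lost without control shRNA library 1 (adjusted p = 0.087), without KDM1A shRNA library 1 (0.10) and in DESeq2 (0.12). PACSIN1, the neuronal PACSIN, had 5 and 11 reads in KDM1A shRNA and 5 and 2 in control shRNA and was not tested.

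Of 10 genes whose products bind or regulate caveolae, 4 rose, 1 fell and 5 were not called, with a median log2 fold change of 0.09, where 56.1% of all tested genes were called in either direction. ROR1, a receptor tyrosine kinase-like protein reported to scaffold CAV1 with PTRF, had 703 and 740 reads in KDM1A shRNA and 239 and 233 in control shRNA. Its log2 fold change of 1.65 (SE 0.08, edgeR adjusted p = 8.1e-10) exceeded that of CAV1. PRKCA, the protein kinase C alpha that SDPR binds, rose to 202 and 200 CPM in KDM1A shRNA, against 129 and 123 CPM in control shRNA (0.67, SE 0.04, edgeR adjusted p = 6.1e-09). FLNA, the actin crosslinker filamin A that links caveolae to stress fibres, rose (0.32, SE 0.03, edgeR adjusted p = 1.2e-06).

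SRC, which phosphorylates CAV1, was called higher by a small amount (0.17, SE 0.05, edgeR adjusted p = 0.012). Its call did not hold when KDM1A shRNA library 1 (0.12) or 2 (0.078) was left out, or in DESeq2 (0.056). INSR, the insulin receptor, fell (-0.45, SE 0.07, edgeR adjusted p = 6.6e-05). DNM2, the dynamin that cuts vesicles from the membrane (-0.07), ABL1 (0.01) and PRKCD (-0.12) did not pass the threshold; DNM2 and PRKCD passed it as lower with upper-quartile scaling (adjusted p = 0.038 and 0.033) and with a mean of at least 5 CPM (0.043 and 0.037), DNM2 also without control shRNA library 1 (0.0043) and PRKCD without control shRNA library 2 (0.031). NOS3 and CD36, proteins of endothelial and fat cell caveolae, had at most 36 reads in any library and were not called.

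**Figure D3:**
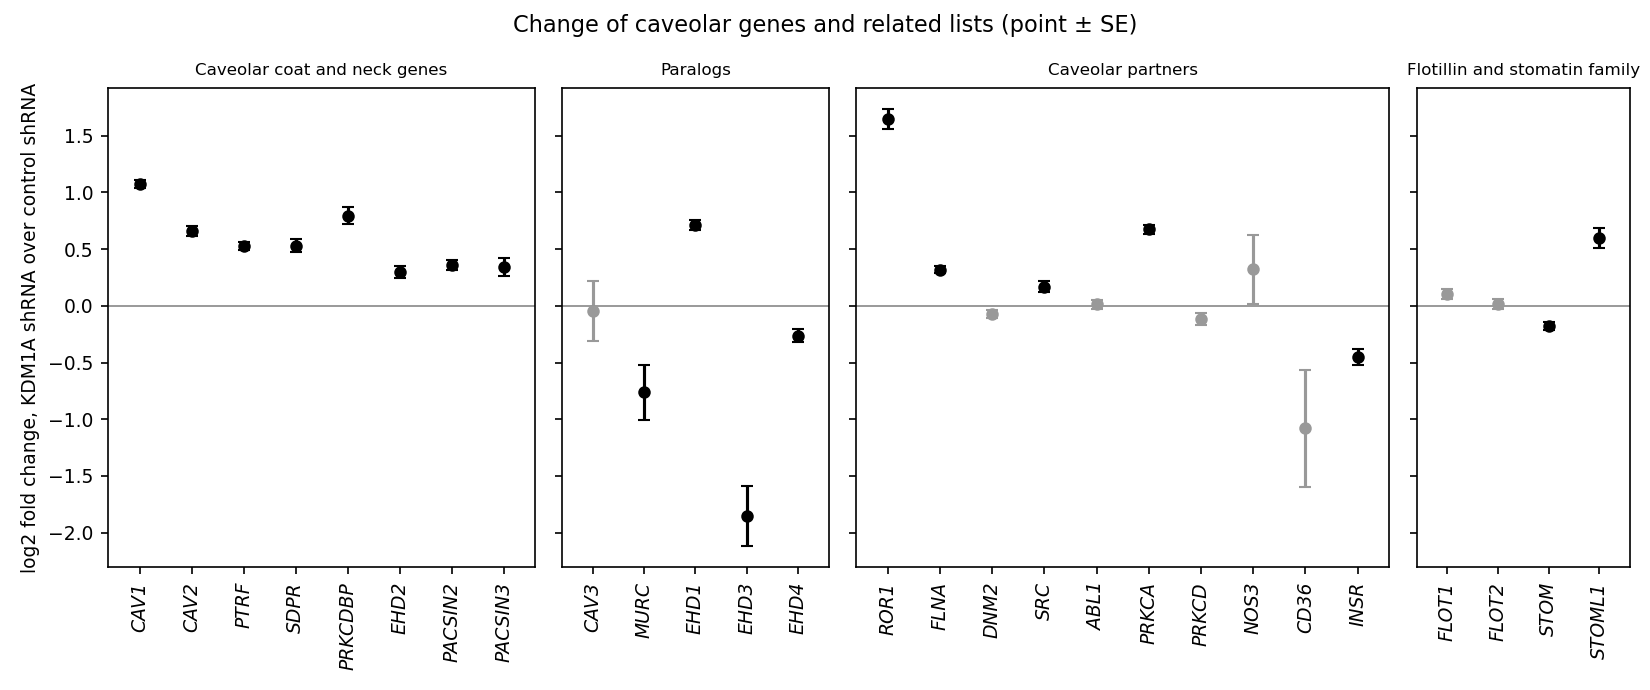
Log2 fold change of KDM1A shRNA over control shRNA with its SE for the 8 caveolar genes, their paralogs, caveolar partners and the flotillin and stomatin family; black points had an edgeR adjusted p under 0.05 and grey points did not. The 8 genes lie between 0.29 and 1.07, ROR1 at 1.65 and EHD3 at -1.85. The 8 genes were picked with this contrast known, so their point colours support nothing.

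Other membrane coats gave a mixed picture. The flotillins FLOT1 (0.10, SE 0.05) and FLOT2 (0.02, SE 0.04), which form raft domains apart from caveolae, were not called; FLOT1 was called as higher with a minimum of 1 count in total (adjusted p = 0.038), after rescaling to the 14 genes typical of the line (0.0071), with the replicate number as a block (0.045) and without control shRNA library 2. The raft protein STOM fell (-0.18, SE 0.04, edgeR adjusted p = 0.00075) and STOML1 rose (0.60, SE 0.09, edgeR adjusted p = 5.5e-05). In the clathrin coat, its adaptors and accessory proteins, 11 of 31 rose, 7 fell and 13 were not called, with a median of 0.05; over all tested genes 27.3% were called higher and 28.8% lower. The clathrin light chain CLTB rose to 155 and 146 CPM in KDM1A shRNA, against 100 and 106 CPM in control shRNA (0.54, SE 0.05, edgeR adjusted p = 2.0e-07). The adaptor subunit AP2M1 (0.37, SE 0.04) and the membrane-bending initiator FCHO2 (0.40, SE 0.05) rose as well. The cargo adaptor DAB2 (-0.89, SE 0.06) and the actin-linked adaptor HIP1 (-0.80, SE 0.06) fell, and amphiphysin AMPH, called lower too, had 2 and 2 reads in KDM1A shRNA and 25 and 22 in control shRNA.

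In a list of other F-BAR proteins, which leaves out FCHO2 and FCHO1 (log2 fold change 0.22, not called, named after its values were seen) because they are counted with clathrin, 5 of the 9 tested were called lower and 1 higher, with a median of -0.11. Over all tested genes, 28.8% were called lower. PSTPIP2 had 188 and 212 reads in KDM1A shRNA and 948 and 819 in control shRNA (-2.11, SE 0.08, edgeR adjusted p = 5.2e-11). FCHSD2 (-0.31), FNBP1 (-0.18), SRGAP1 (-0.17) and TRIP10 (-0.11) were called lower and FNBP1L higher (0.41, SE 0.05). FCHSD1, FER and SRGAP2 were not called, and SRGAP3, PSTPIP1 and FES had too few reads to be tested. The log2 fold change of FCHSD1 (0.12) came to 0.23 without control shRNA library 2 and to 0.012 without control shRNA library 1. The calls of TRIP10 and SRGAP1 were lost in DESeq2 (adjusted p = 0.10 and 0.088) and after rescaling to the 14 genes typical of the line (0.27 and 0.12), that of TRIP10 also without KDM1A shRNA library 1 (0.14) and that of SRGAP1 without control shRNA library 1 (0.12). Without KDM1A shRNA library 2 only 3 of the 9 were called, those of FNBP1, TRIP10 and SRGAP1 being lost.

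CAV1 and CAV2 share a stretch of chromosome 7, with CAV2 ending 16.5 kb before CAV1 starts on the same strand. Of 5 neighbours, 4 were tested, and 3 were called higher and 0 lower, with a median log2 fold change of 0.26. The shares of all tested genes were 27.3% called higher and 28.8% called lower. MET, the hepatocyte growth factor receptor, 111 kb beyond CAV1, had 331 and 336 CPM in KDM1A shRNA and 282 and 265 CPM in control shRNA (0.28, SE 0.04, edgeR adjusted p = 2.4e-05). The actin-capping subunit CAPZA2 (0.23, SE 0.04, edgeR adjusted p = 0.00018) and ST7 (0.47, SE 0.08, edgeR adjusted p = 0.00016) rose farther out on that side. TES, a focal adhesion protein on the other side at 266 kb, had 166 and 165 CPM in KDM1A shRNA and 161 and 167 CPM in control shRNA (0.02, SE 0.04, edgeR adjusted p = 0.77). TFEC, beyond TES, had at most 5 reads in a library and was not tested.

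**Figure D4:**
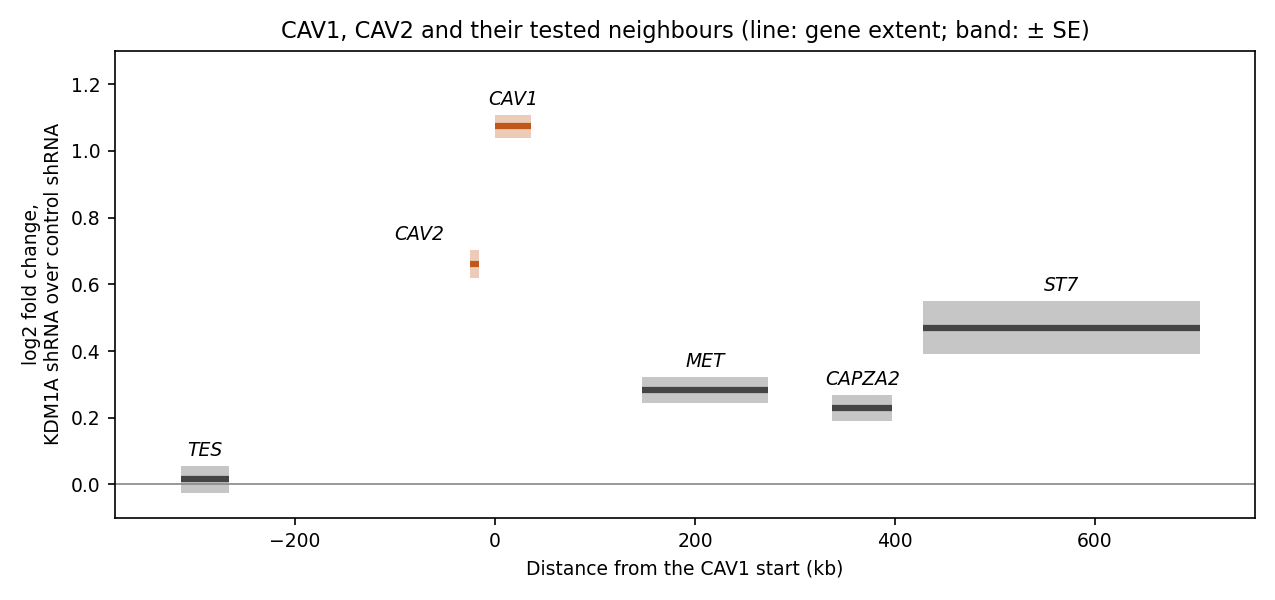
Log2 fold change of KDM1A shRNA over control shRNA for CAV1, CAV2 (orange) and 4 tested neighbours (grey), each drawn over its extent in kb from the CAV1 start, with a band for the SE. CAV1 (1.07) and CAV2 (0.66) lie above ST7 (0.47), MET (0.28), CAPZA2 (0.23) and TES (0.02).

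Among 6603 other genes averaging a log2 CPM of at least 5, those whose log2 CPM over the 4 libraries, centred on its mean, lay nearest to that of CAV1 were RBL1 (Euclidean distance 0.07), PLAU (0.08), GAS6 (0.08), SLC26A2 (0.08) and FSIP2 (0.10). RBL1, the retinoblastoma family protein p107, had 1688 and 1868 reads in KDM1A shRNA and 927 and 853 in control shRNA. PLAU, the urokinase plasminogen activator, had 2339 and 2625 reads in KDM1A shRNA and 1235 and 1160 in control shRNA. GAS6, the ligand of the AXL receptor, had 3598 and 3793 reads in KDM1A shRNA and 1881 and 1773 in control shRNA. The likeness rests on 4 libraries and was chosen by the same contrast, so it is a description. The other 7 caveolar genes lay farther from CAV1 than these 5, the nearest being PRKCDBP (0.36) and CAV2 (0.42). Since the 5 were picked as the nearest of 6603 genes, nothing is read from that difference.

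Annotated lncRNAs overlap CAV1, PTRF, SDPR, PRKCDBP and EHD2 in GENCODE, on the opposite strand for CAV1, SDPR and PRKCDBP. Whether reads were counted by strand is not stated, so antisense reads, where present, cannot be told apart from those of these genes.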

How the data were processed

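The authors deposited raw counts of reads for each gene symbol, with a file for every library; the submitters' processing notes name CASAVA 1.8.2, TopHat2 2.0.8b, HTSeq and hg19. Each file lists 23228 genes and HTSeq summary lines. The summary lines, left out of library sizes and tests, held 38.9% to 41.0% of a file's total, mostly alignments that were not unique, so near-identical paralogs (SRGAP2, for example) are uncertain. Tests used edgeR 4.0.16 (R 4.3.3): TMM, filterByExpr (minimum count 10, minimum total 15), quasi-likelihood F-tests of group over the 4 libraries with no other covariate, and Benjamini-Hochberg adjustment over 14012 genes (threshold 0.05). The SE is the absolute log2 fold change over the square root of F. RPKM used the canonical transcript length of GENCODE v44 on GRCh37, not the authors' gene models. An exact permutation test of 2 against 2 cannot go below p = 0.333. On simulated counts of 14012 genes for this comparison the test recovered 68% of 1.25-fold, 84% of 1.5-fold and 96% of 2-fold changes, with 9 false among 182 calls. The simulation changed 200 genes, whereas 56.1% of tested genes were called in the data. Its spread was the one fitted to these 4 libraries, so it cannot cover variation between separate cultures.

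The 8 genes and all lists were chosen with earlier results of these data known. Named genes are the 8, KDM1A, every gene of a list of up to 14 (except that those typical of the line are given only as a group), the 3 clathrin genes with the smallest p in each direction and the 5 genes most like CAV1. Alternatives were other scalings and filters, DESeq2 1.42.0, limma-voom (limma 3.58.1), a replicate block and each library left out.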

Additional observations from a re-analysis of the deposited data

How the results depend on the processing

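Over the 13 alternatives the log2 fold changes of the 8 caveolar genes, given as a description, ranged from 1.05 to 1.13 for CAV1, 0.61 to 0.72 for CAV2, 0.50 to 0.59 for PTRF, 0.48 to 0.59 for SDPR, 0.67 to 0.93 for PRKCDBP, 0.20 to 0.40 for EHD2, 0.33 to 0.42 for PACSIN2 and 0.26 to 0.43 for PACSIN3. The count of all genes called was 5978 to 8336, against 7861. With a mean of at least 5 CPM, 2 paralogs were tested and 2 called, against 4. With 1 library left out, 3 to 7 F-BAR proteins were called, against 6. The sign turned, each time for a gene that was not called, with upper-quartile factors for ABL1 (-0.011), FLOT2 (-0.0065) and TES (-0.010), with a mean of at least 5 CPM for ABL1 (-0.0075), FLOT2 (-0.0030) and TES (-0.0069), and after rescaling to the 14 genes typical of the line for CAV3 (0.011). With 1 library left out the log2 fold change ran from -0.27 to 0.19 for CAV3, -0.012 to 0.041 for ABL1, -0.016 to 0.62 for NOS3, -0.034 to 0.073 for FLOT2, -0.0015 to 0.11 for SRGAP2 and -0.012 to 0.042 for TES. The cause of these moves was not tested. The labels do not say whether same-numbered libraries of the groups were paired. The deviations of same-numbered libraries had r = 0.015 over genes, which cannot settle this because counting noise alone can hide a pairing. With the replicate block 8142 genes were called. Low counts limit CAV3, MURC, EHD3, NOS3, CD36 and AMPH.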
